A study of Gallus gallus with 3 samples.

Results

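Closely spaced H3K4me3 peaks that carried no H3K27me3 were examined in the neural tube of chicken embryos. A peak was taken as close when it lay on a numbered chromosome, was narrower than 2700 bp, shared no base with an H3K27me3 peak and had another H3K4me3 peak, of any kind, at a gap of at most 1000 bp. Of the 12414 H3K4me3 peaks, 2278 met this rule. They made up 25.8% (95% Wilson interval 24.9 to 26.8%) of the 8820 peaks that met every condition except the gap. The other 6542 are called solitary below. The close peaks were chosen by their gap, width and H3K27me3 overlap, so the values of those measures are given as a description.

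The neural tube came from wild-type White Leghorn embryos at stage HH30 (Hamburger-Hamilton staging, by the form of the embryo), from eggs kept at 38.5 °C and 70% humidity. Chromatin was fixed in 1% formaldehyde for 10 min, and ChIP-seq was done with 1 library for H3K4me3, 1 for H3K27me3 and 1 Input. The labels give neither the number of embryos pooled nor the sex, and the tissue is a mixture of progenitors and differentiating neurons. With 1 library per mark there was no replicate check, and no p-value was computed.

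H3K4me3 is laid down by SET1 and MLL methyltransferase complexes around the start sites of genes, and is strongest on the nucleosomes that flank the nucleosome-depleted start site. A promoter that is transcribed in both directions, or neighbouring start sites of the same gene, can therefore carry a pair of H3K4me3 maxima. H3K27me3 is the mark of Polycomb repressive complex 2, and in the neural tube both marks are known together at silent developmental genes. The deposited lists give positions on galGal4 and a score for each peak, the peak caller's own value, whose scale is not named. On the numbered chromosomes it ran from 50.01 to 3233.06 for H3K4me3, and many peaks share the value 3100. Since the scale is unknown, score ratios below cannot be read as differences in enrichment. No read counts were given, so the depth behind a peak is unknown. Neither the sequence nor a gene annotation of galGal4 was used here, so the places below are not assigned to genes, exons, introns or UTRs.

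The spacing of H3K4me3 peaks showed a surplus of short gaps that was largest between 101 and 200 bp and declined through 1000 bp without a break there. Over all 11302 H3K4me3 peaks of the numbered chromosomes, 2868 (25.4%) had a neighbour within 1000 bp, which is the background against which the close H3K4me3-only peaks are read. The share among H3K27me3-overlapped peaks under 2700 bp was 26.3% (499 of 1898; interval 24.4 to 28.3%), and this interval overlapped that of the H3K4me3-only peaks. Among H3K4me3-only peaks of 2700 bp or more it was 14.8% (63 of 427; interval 11.7 to 18.4%).

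The number of neighbouring H3K4me3 peaks was set beside the number that random placement would give. That value was computed in closed form: the peaks of a chromosome keep their widths and are laid without overlap at random over the span from its start to its last peak. It takes no account of promoters, gene density, base composition or assembly gaps. Gaps of 1 to 100 bp separated 172 pairs, gaps of 101 to 200 bp separated 269, the most of any bin of 100 bp, and gaps of 901 to 1000 bp separated 48. Random placement gave 17.1 pairs for the first of these bins and 16.8 for the last. In all, 1484 gaps were at most 1000 bp, 8.75 times the 169.6 of random placement. The surplus was 12.3-fold up to 500 bp and 5.13-fold from 501 to 1000 bp. From 1001 to 2000 bp it was 1.58-fold (263 pairs against 166.4), and from 2001 to 3000 bp 1.13-fold (185 against 163.2). On either side of the limit of 1000 bp, the bins of 901 to 1000 and 1001 to 1100 bp held 2.86 and 2.50 times the number of random placement.

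**Figure D1:**
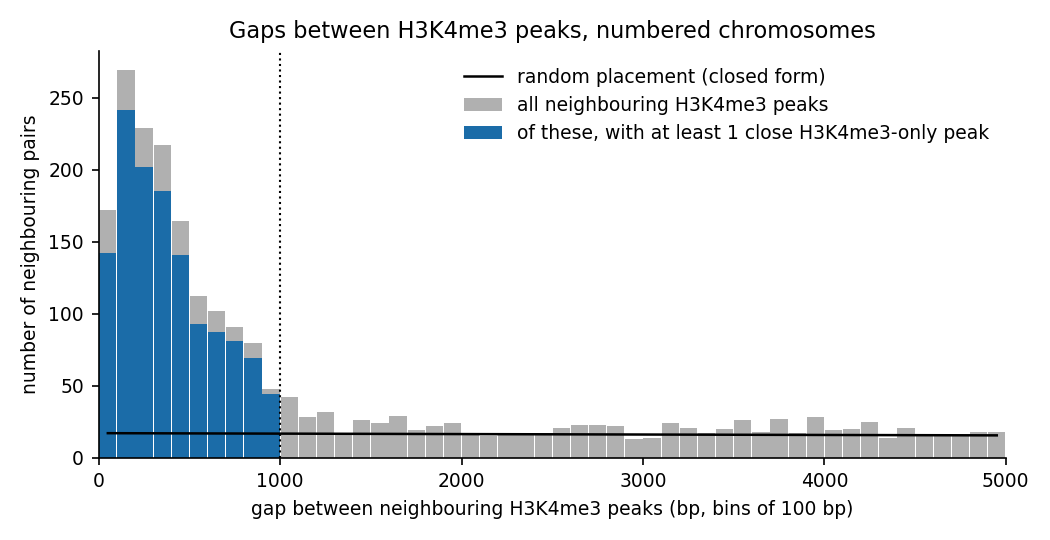
Number of neighbouring H3K4me3 peaks on numbered chromosomes by the gap between them, in bins of 100 bp (x axis in bp, y axis in pairs). Grey bars are all neighbours, blue bars those with at least 1 close H3K4me3-only peak, the black line is random placement and the dotted line the limit of 1000 bp; counts peak at 269 pairs for 101 to 200 bp and fall to 48 just below the limit.

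The close H3K4me3-only peaks had a median gap of 328 bp to their nearest neighbour (quartiles 167 and 550.5 bp; range 1 to 993 bp). A gap of at most 200 bp was found for 685 of them (30.1%) and of at most 500 bp for 1621 (71.2%). The smallest gap was a single base, on chromosome 20 at chr20:10316082-10318971, where a close peak of 2149 bp adjoined an H3K27me3-overlapped peak of 740 bp. The smallest gap between 2 close peaks was 3 bp, at chr18:9537230-9539134, with widths of 958 and 944 bp and scores of 659.74 and 87.01. In the next 3 pairs by gap the neighbours were 6, 7 and 9 bp apart, at chr7:4506758-4510096, chr18:8259901-8262556 and chr2:89704329-89706637. The scores were far apart at the chromosome 7 site (676.63 and 50.38) and similar at the chromosome 2 site (2505.65 and 2210.48).

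At the limit itself, the largest gap within the rule was 993 bp, between 2 peaks of chromosome 5 (57896470 to 57897989 and 57898983 to 57899731), and the second-largest was 992 bp, on chromosome 20 (10581420 to 10582323). Just outside lay 2 peaks of chromosome 3 that are 1003 bp apart (87654187 to 87654988 and 87655992 to 87656736) and another of chromosome 3 at 1007 bp (40468723 to 40469357). The widest close peaks were 2666, 2623 and 2611 bp wide, and the narrowest left out by width alone were 2734, 2736 and 2743 bp wide.

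Nearly all of the close peaks stood in simple pairs. Chains of H3K4me3 peaks with each gap at most 1000 bp are called runs, and 1217 runs held the 2278 close peaks. Of these runs, 1151 (94.6%; interval 93.2 to 95.7%) had exactly 2 peaks and held 2101 of the close peaks, 60 had 3, 4 had 4, and 1 each had 6 and 7. Runs of 3 or more thus made up 5.42% (interval 4.29 to 6.84%). With H3K27me3 ignored in the rule this was 6.38% (5.21 to 7.80%). That set of 2777 peaks contains all 2278 close ones, so the 2 shares are not independent. Runs of H3K27me3-overlapped peaks were not measured apart, and no run length under random placement is given. Whether simple pairs are particular to H3K4me3-only peaks was therefore not tested. Runs made of close H3K4me3-only peaks alone numbered 993 (81.6%; interval 79.3 to 83.7%). The nearest neighbour of a close peak was itself one in 2055 cases (90.2%). A neighbour that meets the other conditions is close by the same gap, and 78.0% of all H3K4me3 peaks of the numbered chromosomes met them, so much of this count is built into the rule. The nearest neighbour was an H3K27me3-overlapped peak in 172 cases (7.55%) and an H3K4me3-only peak of 2700 bp or more in 51 (2.24%). Among all 11302 H3K4me3 peaks of the numbered chromosomes, 2055 were of the first kind and 427 of the second. In all, 63 close peaks (2.77%) had a neighbour within 1000 bp on each side.

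A run spanned 2489 bp in the median (quartiles 2122 and 3118 bp), and peaks covered 86.5% of it. For pairs of 2 close peaks the median span was 2406 bp, the summed width 2024 bp and the distance between midpoints 1403 bp (quartiles 1169 and 1684 bp). The gap took 13.8% of the span of such a pair. A solitary peak was 1556 bp wide in the median, so that a pair was longer than a solitary peak while each of its peaks was narrower. Of the 993 runs of close H3K4me3-only peaks alone, 352 (35.4%; interval 32.5 to 38.5%) spanned at least the 2700 bp at which peaks were called wide here. The 427 wide H3K4me3-only peaks had a median width of 3169 bp.

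The runs with the most peaks differed in kind. The run of 7 peaks, at chr1:48025245-48035135, spanned 9891 bp and consisted of close H3K4me3-only peaks alone. All of its scores were low, from 63.91 to 207.01, its widths ran from 658 to 1606 bp, and each of its peaks was at least 267418 bp from the nearest H3K27me3 peak. The run of 6, at chr27:3578136-3595821, spanned 17686 bp. It ended in peaks of 3786 and 5855 bp that scored 3100 and were too wide for the rule. Its 4 close peaks scored 108.73, 105.91, 3100 and 279.82 in order of position. A run of 4 followed on chromosome 27, at chr27:3613652-3622867, in which a wide peak of 4546 bp (score 1953.97) stood between narrower ones with scores of 257.89, 377.86 and 1179.4. At chr2:57027944-57035816 a wide peak with a score of 3100 had 2 close peaks on one side (scores 72.93 and 335.14) and an H3K27me3-overlapped peak on the other (297.35). At chr8:19660268-19667947 all 4 peaks were close, with scores of 719.96 and 2513.37 at the ends and 143.34 and 120.99 between them. High scores thus stood at the end, in the middle or nowhere in these runs.

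**Figure D2:**
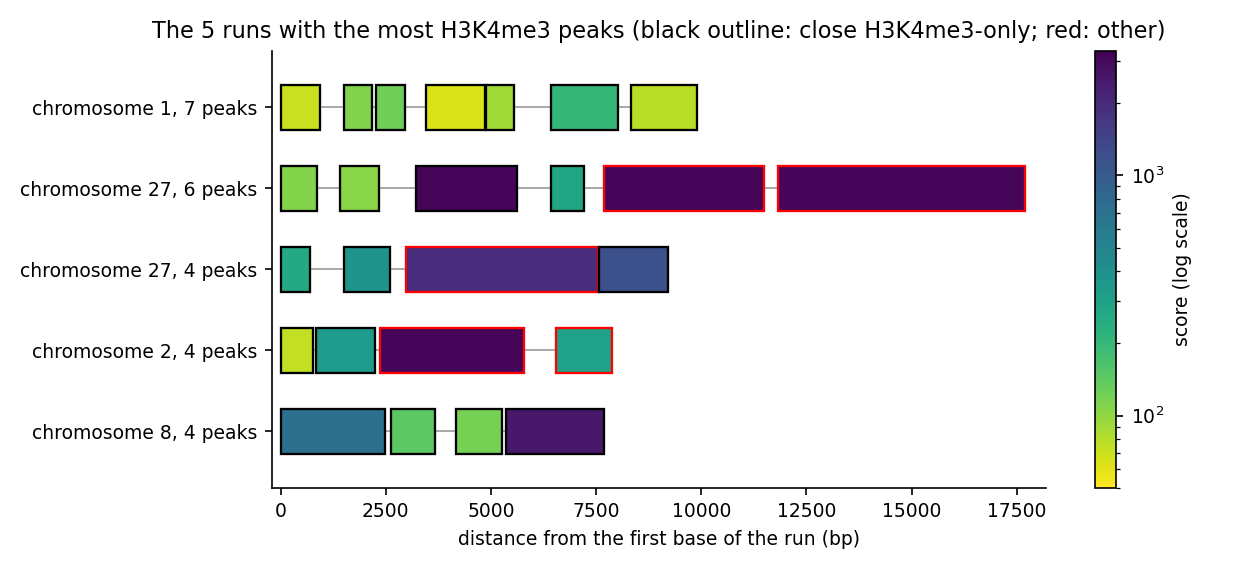
The 5 runs with the most H3K4me3 peaks, each drawn from its first base (x axis in bp); boxes are peaks to scale, coloured by score on a log scale, with a black outline for close H3K4me3-only peaks and a red one for peaks that are wide or overlapped by H3K27me3. The chromosome 1 run holds 7 peaks with scores of at most 207.01, while the chromosome 27 run of 6 holds 3 peaks with a score of 3100.

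In runs of 3 peaks the middle one had the highest score in 29 of 58 runs without a tie (50%; interval 37.5 to 62.5%) and the lowest in 16 of 60 (26.7%; interval 17.1 to 39.0%). It was the widest in 9 of 60 (15%; interval 8.10 to 26.1%).

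Neighbours within 1000 bp had a larger score ratio than neighbours further apart, and about the same width ratio. This holds for ratios only, and differences in score units are not given. The 1285 neighbouring pairs with at least 1 close H3K4me3-only peak had a median ratio of wider to narrower width of 1.37 (quartiles 1.15 and 1.77). The widths were more than 2-fold apart in 229 pairs (17.8%; interval 15.8 to 20.0%), against 19.4% of all neighbouring H3K4me3 peaks of the numbered chromosomes at any gap. The scores of the same pairs had a median ratio of 3.29 (quartiles 1.74 and 7.28), and 894 pairs (69.6%; interval 67.0 to 72.0%) were more than 2-fold apart, against 62.3% at any gap. In 237 pairs (18.4%) the scores were more than 10-fold apart. For pairs of 2 H3K4me3-only peaks under 2700 bp this share was 17.2% when close (interval 15.1 to 19.6%). It was 13.4% at 1001 to 5000 bp (10.9 to 16.4%), 13.8% at 5001 to 20000 bp (12.2 to 15.5%) and 15.4% over 20000 bp (14.3 to 16.6%). The interval of the close pairs overlapped each of these.

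Pairs of 2 H3K4me3-only peaks under 2700 bp can be compared over the gap under the same width and overlap conditions. The pairs over 1000 bp apart were not limited to solitary peaks. A close peak can also stand in such a pair with its neighbour on the other side. The width ratio was 1.33 in the median for the 1056 close pairs, and 1.34, 1.33 and 1.37 for neighbours 1001 to 5000 bp, 5001 to 20000 bp and over 20000 bp apart. The score ratio was 3.20 in the close pairs, against 2.36, 2.33 and 2.32 in the same 3 classes. Without pairs that had a score of 3100 or above, it was 2.94 against 2.29, 2.33 and 2.36. The median scores of a close pair were 322.9 for the lower and 1411 for the higher peak. Neighbours 1001 to 5000 bp apart had 597.9 and 1756, and those over 20000 bp apart 713.3 and 2250. Within a close pair the lower score was 31.3% of the higher one in the median (quartiles 14.4 and 58.5%).

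Among pairs whose higher score lay in the same range, the median lower score was smallest in the close pairs in each of 3 ranges. The ranges run from 300 to 3100, and pairs with a higher score below 300 or at 3100 and above were left out. Pairs further apart could again include close peaks. For a higher score of 1000 to 2000, the lower score had a median of 432.8 in 340 close pairs, 649.7 in 192 pairs 1001 to 5000 bp apart and 618.6 in 1549 pairs more than 5000 bp apart. For 2000 to 3100 these medians were 594.3, 916.4 and 1007. For 300 to 1000 they were 217.8, 263.2 and 271, and the quartiles overlapped widely in all 3 ranges. The narrower peak of the close pairs was also narrower (843 bp against 1157 and 1184 bp in the middle range), and its part in the lower score was not tested. Close peaks also scored lower than solitary ones as a set (medians 674 and 1453). The scores within close pairs were hardly correlated (Spearman -0.04). The part of this lower set of scores was not tested either, so the smaller lower score is not read as a property of pairing.

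The wider peak of a pair had the higher score in 1017 of 1280 pairs without a tie (79.5%; interval 77.2 to 81.6%). For pairs of 2 H3K4me3-only peaks this share was 78.4% when close and 76.5% at 1001 to 5000 bp. Position along the chromosome carried no such order: the higher score lay on the lower coordinate in 48.8% of pairs (625 of 1281; interval 46.1 to 51.5%), and the wider peak in 50.5% (648 of 1284; interval 47.7 to 53.2%). Across the 1285 pairs the scores of the neighbours had a Spearman correlation of -0.06 and their widths one of 0.08. The gap was hardly related to the lower score (-0.03) or the narrower width (-0.01). These pairs share 1 library, and the values are descriptive.

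**Figure D3:**
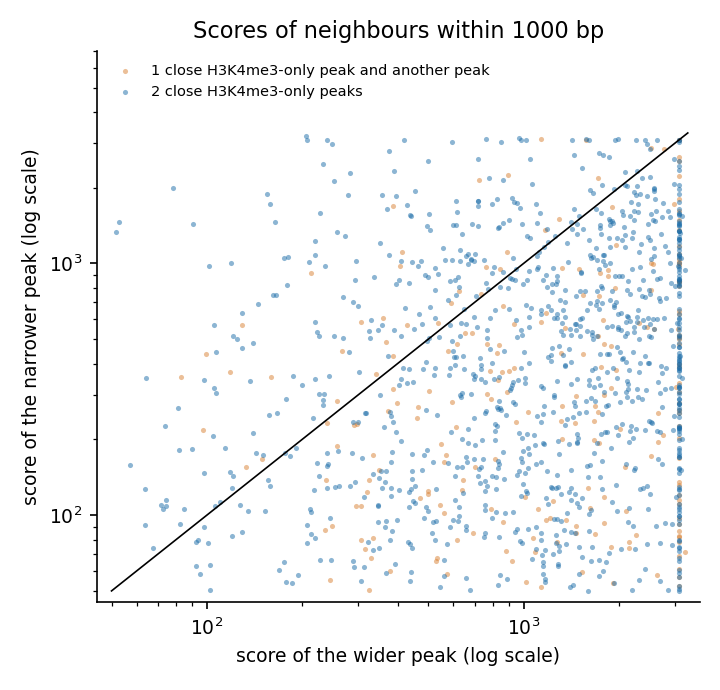
Scores of neighbouring H3K4me3 peaks at most 1000 bp apart, the wider peak on the x axis and the narrower on the y axis, both on log scales; each point is 1 of 1285 pairs and the line marks equal scores. Most points lie below the line (79.5% of pairs without a tie), and the column of points at the right edge of the x axis is the shared score of 3100.

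The 2 pairs nearest to the median in gap, width ratio and score ratio, chosen after their values were seen, show what was typical. At chr2:126049331-126051519 peaks of 1055 and 815 bp stood 319 bp apart with scores of 814 and 229.53. At chr1:144348873-144350942 peaks of 987 and 713 bp stood 370 bp apart with scores of 757.61 and 255.68. In each, the peak with the lower coordinate was both the wider and the higher-scoring.

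Pairs in which both peaks scored high were rare. Only 2 of 1056 pairs of close peaks had both scores at 3100 or above (0.189%; interval 0.0520 to 0.688%), whereas 151 (14.3%) had 1 such peak. Single close peaks reached 3100 in only 6.94% of cases, so few such pairs would arise even with unrelated scores. The same count for neighbours further apart is not given, so the rarity is not read as particular to close pairs. Those 2 lay at chr25:1454843-1458057 (widths 1467 and 1620 bp, gap 128 bp) and at chr2:20373430-20376272 (1603 and 1111 bp, gap 129 bp). The next by lower score lay at chr5:28137958-28141198 (3031.6 and 3100, gap 744 bp), at chr2:103500675-103505263 (3100.64 and 2643.35, gap 854 bp) and at chr27:4047583-4052703 (2989.99 and 2594.76, gap 764 bp).

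The 5 pairs most unequal in width each joined a close H3K4me3-only peak to a peak of 2700 bp or more. The rule keeps close peaks under 2700 bp, which limits the width ratio of 2 such peaks, at most 4.18 here. No such limit holds for scores, and the largest score ratio, 61.9, lay between 2 close peaks. At chr15:9339264-9344748 a peak of 516 bp (score 811.81) stood 413 bp from one of 4556 bp (3100), a width ratio of 8.83. At chr2:113995757-114004696 an H3K27me3-overlapped peak of 7763 bp (3100) had a close peak of 1027 bp (78.26) at 150 bp. At chr4:78827964-78833107 the widths were 4182 and 614 bp and the scores 3100 and 114.65. The remaining 2 lay at chr5:10906842-10912307 (641 and 4071 bp, the latter overlapped by H3K27me3) and at chr14:4121721-4130782 (7709 and 1230 bp). A close peak scored below its wide H3K4me3-only neighbour in 50 of 54 pairs (92.6%; interval 82.4 to 97.1%). Over 1000 bp apart, H3K4me3-only peaks under 2700 bp, close or solitary, did so in 530 of 646 such pairs (82.0%, interval 78.9 to 84.8%). The wide peaks had a median score of 3100. Pairs with equal scores stay in these totals, and in those of the next comparison, as not lower, and were not counted apart. Scores of 3100 or above were found in 6.94% of close and 15.1% of solitary peaks, so the shares are not strictly comparable. Beside an H3K27me3-overlapped neighbour a close peak scored lower in 95 of 175 pairs (54.3%; interval 46.9 to 61.5%), against 764 of 2654 pairs over 1000 bp apart (28.8%; 27.1 to 30.5%).

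Close peaks were narrower and scored lower than solitary ones. Their median width was 970 bp (quartiles 794 and 1262 bp), against 1556 bp (1261 and 1889 bp), and 53.0% were under 1000 bp (interval 51.0 to 55.1%), against 9.95% (9.25 to 10.7%). Their median score was 674 (quartiles 246.3 and 1530), against 1453 (643.3 and 2481). The quartile ranges of the scores overlapped. Scores of 3100 or above were found in 6.94% of close peaks (interval 5.96 to 8.05%) and 15.1% of solitary ones (14.2 to 16.0%).

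**Figure D4:**
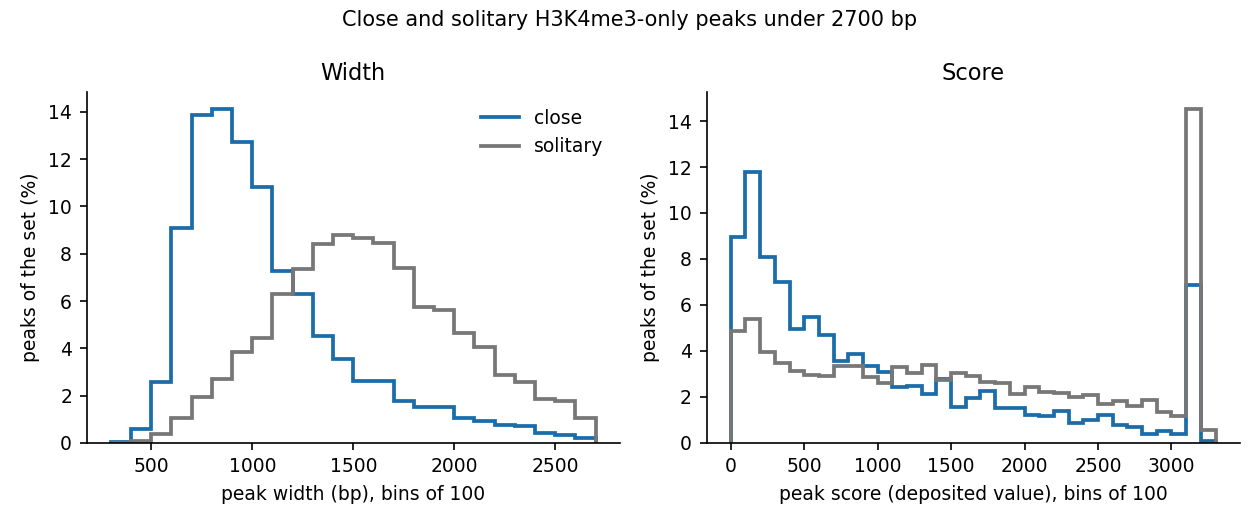
Width in bp (left) and deposited score (right) of close (blue) and solitary (grey) H3K4me3-only peaks under 2700 bp, as the percentage of each set in bins of 100. Close peaks centre on a median of 970 bp against 1556 bp, and hold fewer peaks in the bin of the shared score of 3100.

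Wider peaks tended to score higher in both sets (Spearman correlation 0.66 for close and 0.69 for solitary peaks). Whether width accounts for the lower score of close peaks was not tested. When the 8820 peaks were divided into 10 classes of equal number by width, close peaks had the higher median score in the 7 narrower classes and the lower one in the 3 widest. At 812 to 983 bp the medians were 567.3 for 534 close and 210.7 for the 348 solitary peaks of that class, a ratio of 2.69, the largest of the 10. At 2141 to 2696 bp they were 2513 and 3100, a ratio of 0.811, the smallest. In the median, narrow peaks with a neighbour therefore scored above narrow peaks without one. The share of close peaks fell with width from 72.1% in the narrowest class (397 to 812 bp) to 7.60% in the widest. By score it was 39.1% below 100, 42.5% from 100 to 300 (39.6 to 45.5%) and 34.2% from 300 to 1000, and then declined to 13.8% at 3100 and above (11.9 to 15.9%).

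The surplus of close peaks shrank when low-scoring peaks were left out. When peaks below the median score of the list (1104) were left out, both as members and as neighbours, 274 close peaks remained, or 5.72% of the peaks that then met the other conditions (interval 5.09 to 6.41%). This share was still above random placement of the remaining peaks, 6.62-fold on macrochromosomes and 1.95-fold on microchromosomes. With peaks below a score of 100 left out, 1917 were close (23.1%).

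The chicken karyotype joins a few large macrochromosomes with many small, gene-dense microchromosomes, and the share of close peaks was compared between them. The macrochromosomes here are chromosomes 1 to 5, the intermediate chromosomes 6 to 10 and the microchromosomes all numbered from 11 upwards. H3K4me3 peaks were more than 2-fold denser on microchromosomes (21.3 per Mb of span against 9.43), so random placement gave more close peaks there. The measured share did not follow. It was 25.6% on macrochromosomes (1140 of 4446; interval 24.4 to 26.9%), 29.9% on intermediate chromosomes (440 of 1470; 27.6 to 32.3%) and 24.0% on microchromosomes (698 of 2904; 22.5 to 25.6%). Random placement gave 1.93, 2.85 and 4.73%. The fold over random placement was therefore 13.3, 10.5 and 5.08. In percentage points the excess was 23.7, 27.1 and 19.3. With the density taken from each peak's own window of 1 Mb, which includes the close peaks, the folds were 9.58, 8.43 and 4.14, in the same order.

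Runs were denser on microchromosomes, at 2.17 per Mb of span against 1.69 on intermediate chromosomes and 1.00 on macrochromosomes. Per 100 H3K4me3-only peaks under 2700 bp there were 12.8, 16.5 and 13.6 runs. The median gap was 317.5 bp on macrochromosomes, 356 bp on intermediate chromosomes and 334 bp on microchromosomes, with quartiles between 162 and 569 bp. Runs of 3 or more peaks made up 6.95% of runs on macrochromosomes (interval 5.19 to 9.27%) and 4.04% on microchromosomes (2.47 to 6.56%), and the intervals overlapped. Close peaks were 970 and 1002.5 bp wide in the median on these classes and scored 761.4 and 605.3; solitary peaks were 1529 and 1561 bp wide and scored 1482 and 1389.

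Single microchromosomes spread widely in their share of close peaks. Among the 27 chromosomes with at least 50 H3K4me3-only peaks under 2700 bp, the share ran from 24.2 to 27.7% on macrochromosomes, from 26.4 to 33.0% on intermediate chromosomes and from 14.1 to 32.0% on microchromosomes. The last range was taken over 17 chromosomes, against 5 in each other class. Each of the 17 held 70 to 261 such peaks, against 603 to 1358 on a macrochromosome, and counting error was not separated from the spread. The share was lowest on chromosome 21 (21 of 149; interval 9.41 to 20.6%) and, on microchromosomes, highest on chromosome 20 (70 of 219; 26.1 to 38.4%). Chromosome 10 had the highest share of all, 33.0% (94 of 285; 27.8 to 38.6%). All 28 numbered chromosomes lay above random placement, from 2.26-fold on chromosome 16, which had only 2 close peaks of 13, to 16.2-fold on chromosome 2. Across the 28 chromosomes the share had a Spearman correlation of 0.49 with span and -0.42 with peak density. Random placement had a correlation of -0.93 with span. The chromosomes share 1 library and density enters both values, so these are descriptions.

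Chromosome Z stood apart from the autosomes in its share of close peaks. By the same rule 18 of its 460 H3K4me3-only peaks under 2700 bp were close, or 3.91% (interval 2.49 to 6.10%), against 14.1% on the lowest numbered chromosome with at least 50 such peaks. Random placement gave 1.49%, so the fold was 2.64. This fold lay above the 2.26 of chromosome 16 and the 2.59 of chromosome 21, which span only 0.484 and 6.77 Mb and hold 33.1 and 26.7 H3K4me3 peaks per Mb. Z spans 82.3 Mb and holds 7.39 per Mb. Chromosomes 1 to 5 are nearer to Z in span and density, and their folds ran from 10.4 to 16.2, well above that of Z. Among all H3K4me3 peaks of Z, 14 of 607 gaps were at most 1000 bp, against 1484 of 11274 on the numbered chromosomes. Z also had fewer narrow peaks: 10% of its H3K4me3-only peaks under 2700 bp were under 1000 bp wide (interval 7.58 to 13.1%), against 21.1% (20.2 to 21.9%) on numbered chromosomes. No H3K4me3 peak of Z was narrower than 641 bp, while the narrowest on the numbered chromosomes was 397 bp. The median score of these peaks was 1591 on Z and 1251 on the numbered chromosomes. Copy number of Z relative to the autosomes, which depends on the sex of the embryos, cannot be told apart from the chromosome here, and the files do not show whether the peaks of Z were called with the same settings as the others.

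**Figure D5:**
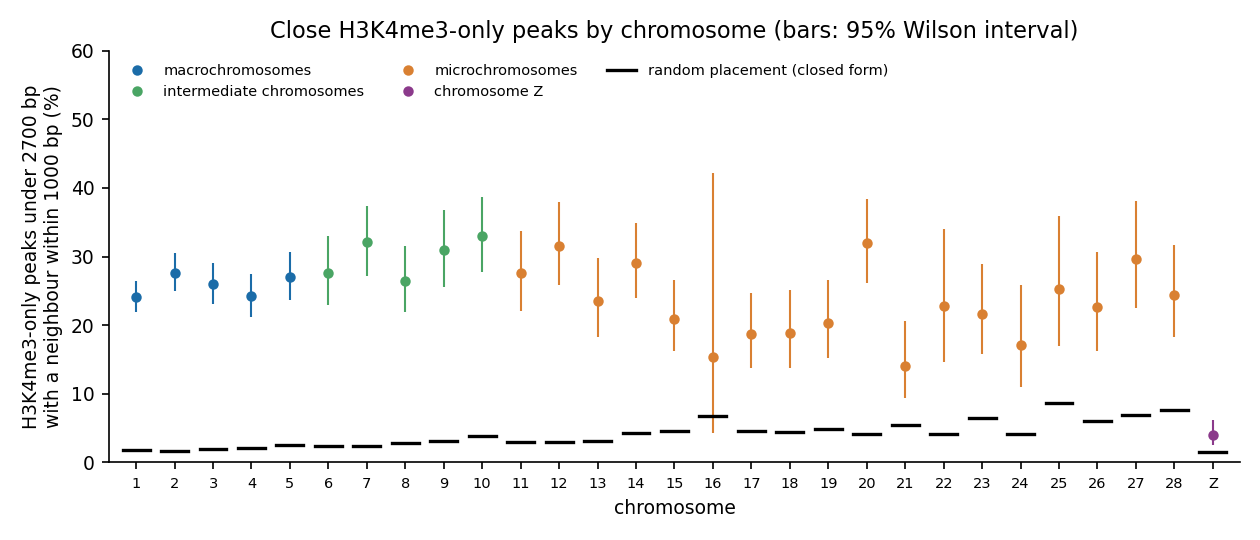
Share of H3K4me3-only peaks under 2700 bp that had an H3K4me3 neighbour within 1000 bp (y axis, percent) on each numbered chromosome and on Z (x axis); points carry 95% Wilson intervals, colours mark the size class and black bars show random placement. The shares of chromosomes 1 to 10 lie between 24.2 and 33.0%, microchromosomes scatter more but hold fewer peaks each than macrochromosomes, and Z lies at 3.91%.

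Close peaks were spread along the chromosomes. At least 1 lay in 590 of the 888 windows of 1 Mb that held an H3K4me3-only peak under 2700 bp (66.4%). The number of such windows under random placement is not given, so clustering at this scale was not tested. When each chromosome was divided into 10 parts of equal length, the share of close peaks ran from 19.8% in part 9 (interval 17.2 to 22.8%) to 29.1% in part 4 (26.2 to 32.2%). The 5 windows with the most held 76 close peaks (3.34%). These were the window from 3 to 4 Mb on chromosome 27, with 19 close of 38 such peaks, that from 10 to 11 Mb on chromosome 20 (16 of 44), that from 1 to 2 Mb on chromosome 25 (14 of 48), that from 3 to 4 Mb on chromosome 28 (14 of 45) and that from 47 to 48 Mb on chromosome 1 (13 of 29). The window of chromosome 27 contains the runs of 6 and of 4 peaks described above.

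Proximity to H3K27me3 was in large part set by the rule, which allows a close peak an H3K27me3-overlapped neighbour within 1000 bp and a solitary peak none, so the values are a description. An H3K27me3 peak was found within 5 kb of 10.2% of close peaks (232 of 2278; interval 9.01 to 11.5%) and of 5.41% of solitary ones (354 of 6542; 4.89 to 5.99%). Of those 232 close peaks, 166 had it within 1 kb. When the neighbour also had to be an H3K4me3-only peak under 2700 bp, which by construction takes such peaks away from the close set, 2.86% of the 2061 close peaks (interval 2.23 to 3.68%) had H3K27me3 within 5 kb, against 7.80% of the peaks left without such a neighbour (7.18 to 8.46%). The latter set then takes in the peaks beside H3K27me3-overlapped neighbours, and nothing is read from either order. An H3K27me3-overlapped peak was the partner in 175 of the 1285 pairs (13.6%; interval 11.9 to 15.6%). Of the 11302 H3K4me3 peaks of the numbered chromosomes, 2055 were so overlapped. In no pair did an H3K27me3 peak lie wholly within the gap (0 of 1285, which allows a share of up to 0.233% by the limit of 3 counts, or 0.298% by the Wilson interval). These gaps had a median of 330 bp and a maximum of 993 bp, and only an H3K27me3 peak shorter than the gap could lie there. The gap limit thus bears on this count, and no absence of H3K27me3 between the peaks is read from it. The median distance to H3K27me3 was 78.9 kb for close and 81.2 kb for solitary peaks. By size class, 9.47% of close peaks on macrochromosomes had H3K27me3 within 5 kb, against 3.54% of solitary ones, and 9.89% against 8.02% on microchromosomes.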

How the data were processed

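Per the submitters' processing notes, reads were handled with BWA and MACS2 on galGal4, with no version or parameter; the track lines, per the file headers, name MACS in Galaxy as the source of the peaks. Use of the Input as a control in peak calling is not stated, and the Input was not analysed here. The deposited score is the authors' value for each peak, on a scale that is not named. It was used only within the H3K4me3 list, to rank and compare peaks and to form score ratios between them. Peaks were called on 1 library per mark, so no test between replicates exists.

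Overlap with H3K27me3 meant at least 1 shared bp. Coordinates are printed counting from 1. Random placement was computed in closed form for each chromosome and is a description without a p-value. Shares carry 95% Wilson intervals and medians were judged by binomial order-statistic intervals. These treat neighbouring peaks, which come in pairs, as independent and cover counting error only, not variation between embryos. The scripts were tested on simulated peak lists. Python 3.11.15, pandas 2.3.3, numpy 2.4.6, SciPy 1.17.1 and matplotlib 3.10.9 were used.

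Regions were named by rule: the 5 runs with the most peaks, the 5 pairs with the highest lower score, the largest width ratio and the smallest gap, the 5 windows of 1 Mb with the most close peaks, and the 3 peaks nearest each limit on either side. The rule that defines the close peaks and these lists were chosen with earlier results of these data known. The score ranges, parts of chromosomes, typical pairs and the comparison with chromosome Z were added after values were seen.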

Additional observations from a re-analysis of the deposited data

How the results depend on the processing

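No paired analysis was possible because each mark had 1 library. Of 141 recomputed values, 81 stayed within the interval of the reported value (counts within 1.5-fold), 59 moved and 1 turned direction; every fold over random placement stayed above 1. The turn was the share of close peaks with H3K27me3 within 5 kb when the neighbour had to be a close H3K4me3-only peak (2.86%, with 7.80% for solitary), a setting added after seeing the data, which by construction moves the peaks beside H3K27me3 from the close to the solitary set; that rule gave 23.4% close peaks and a width ratio of 1.33. Values below name macro-, intermediate and microchromosomes in that order, for the share of close peaks and then its fold over random placement.

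With a gap limit of 500 bp, 18.4% were close, the classes gave 18.5, 21.4 and 16.6% and 19.1, 14.9 and 6.94-fold, runs of 3 or more were 3.99%, the median span was 2329 bp and solitary peaks scored 1368. With 2000 bp these were 29.96%, then 29.5, 34.4 and 28.4%, and 7.72, 6.12 and 3.08-fold, with 8.27% and 2664.5 bp. Scores of at least 100 gave 23.1%, then 23.1% on macro- and 20.7% on microchromosomes, 4.73-fold on the latter, a width ratio of 1.33 and a score ratio of 2.83. Scores at or above the list median gave 274 close peaks (5.72%), then 6.53, 5.32 and 4.61%, and 6.62, 3.83 and 1.95-fold, a median gap of 310 bp, runs of 3 or more of 0%, a width ratio of 1.28, a score ratio of 1.43, 74.8% of pairs with the higher score in the wider peak, and a span of 2978 bp. A width limit of 2000 bp gave 29.1% close and a solitary score of 1216; no width limit gave a solitary score of 1537. Ignoring H3K27me3 gave median scores of 584 close and 1237 solitary. Requiring no H3K27me3 within 1000 bp gave 24.6%, and 24.3% on macrochromosomes. Without scores of 3100 or above the medians were 605 and 1211, and the score ratio 2.97. Placement within 1 Mb gave 9.58, 8.43 and 4.14-fold. Counting chromosomes from 9 as microchromosomes gave 11.5-fold for intermediate and 5.59-fold for microchromosomes. Within 10 kb of H3K27me3 lay 13.1% of close and 9.49% of solitary peaks. Without the 5 windows with the most close peaks, a setting added later, no class left its interval. For values that moved, the cause was not tested beyond the change of setting itself. Unknown depth limits all values: the lists do not show where the mark is absent, and a valley too shallow or too short to split a peak is not seen.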
